A study of Rattus norvegicus with 26 samples.

Results

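Serum response factor (SRF), the coactivators of the myocardin family, the MEF2 factors and the Kruppel-like factor Klf15 were followed during the differentiation of rat multipotent adult progenitor cells (rMAPCs) to smooth muscle cells (SMCs). The 8 genes were *Srf*, *Myocd*, *Mkl1*, *Mkl2*, *Mef2a*, *Mef2c*, *Mef2d* and *Klf15*, and a probe was taken as theirs where its gene name in the scanner files was 1 of these symbols. This rule found 10 of the 41012 gene probes on the array, for 6 of the 8 genes. No probe carried the name *Mkl2* or *Mef2c*, and 2 probes described as similar to *Mef2c* under other gene names were below the detection limit on all 26 arrays. A probe is called detected on an array where the scanner marked it as well above background. Probes detected on all arrays of some group were tested, which were 9 of the 10 and 24442 of the 41012.

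The rMAPC lines Cl19 (clone Cl-19, 3 week old rats) and 3c3 (rats of embryonic day E18) were Oct4-expressing clones from bone marrow of female Fischer rats, and both received TGFβ1 and PDGF-BB in basal rMAPC medium without serum. RNA was taken on d0, before the factors, and on d2, d4 and d6, with 3 arrays per line and day. A further 2 arrays held RNA of primary SMCs, which the labels call rat aortic RNA of a commercial supplier and the methods attribute to another supplier. Each line is a clone. The methods call the 3 arrays of a day biological replicates without saying whether they were separate cultures, so p-values measure the spread between these arrays.

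SRF binds the CArG box, a short A and T rich element in the promoters of smooth muscle and of immediate-early genes, but has little activity by itself. Myocardin, which is found in smooth and cardiac muscle, and the related Mkl1 and Mkl2 (also called MRTF-A and MRTF-B) bind SRF and activate the contractile genes, and the MRTFs enter the nucleus when free actin monomer is used up. MEF2 proteins bind another A and T rich site and are held inactive by class IIa histone deacetylases. Klf15 is known as an inhibitor of both SRF-myocardin and MEF2 activity in muscle.

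Levels are given as quantile-normalized log2 intensities, in the order of replicates 1, 2 and 3, and are compared only for the same probe. A gene with several probes is read from the brightest, called probe 1. Outside the slide of 3c3 replicate 3, between 52.7% and 61.4% of gene probes were detected on the rMAPC arrays, against 43.2% to 51.8% on that slide and 43.6% to 44.5% in primary SMCs. The array labelled Cl19 d2 replicate 1 correlated more strongly with the 3c3 d2 arrays (r 0.989 to 0.994 across the tested probes) than with the other Cl19 d2 arrays (r 0.967 to 0.970), so d2 results of Cl19 are given with and without it. Each slide carried d0, d2, d4 and d6 of 1 replicate at positions 1 to 4, so day and position cannot be told apart. Cl19, 3c3 and primary SMC arrays were scanned on different dates, so cell source and scan date cannot be told apart. The median d6 change over all tested probes was -0.20 in Cl19 and -0.21 in 3c3 on the log2 scale, and 42.1% and 40.7% of the probes called were higher. In the authors' log2 table, which is not normalized between arrays, the medians were 0.10 and 0.09 and these shares 55.7% and 56.4%.

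*Srf* transcripts, read by the brightest probe, rose in Cl19 to a maximum on d4 and were lowest in primary SMCs after quantile normalization. The probe lies at chr9:9797512-9797571 (rn4). In Cl19 its log2 levels were 13.19, 13.25 and 13.09 on d0, 13.65, 14.02 and 13.90 on d2, 14.77, 14.25 and 14.44 on d4, and 14.34, 13.54 and 13.91 on d6. In 3c3 they were 13.44, 13.14 and 13.23 on d0, 13.61, 13.48 and 13.51 on d2, 13.88, 13.87 and 13.73 on d4, and 13.87, 13.59 and 13.50 on d6. All later arrays of a line lay above all 3 of its d0 arrays, whereas the d4 and d6 arrays overlapped in both lines. Primary SMCs had 12.90 and 12.87, below every rMAPC array. In the order of group means, Cl19 d4 was followed by Cl19 d6, Cl19 d2 and 3c3 d4, and each of these overlapped with its neighbour.

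The rise of this probe in Cl19 was 0.68 ± 0.17 (SE) on d2 (adjusted p = 0.00737), 1.31 ± 0.17 on d4 (2.47-fold, adjusted p = 4.8e-06) and 0.75 ± 0.17 on d6 (1.68-fold, adjusted p = 0.00116), by limma with Benjamini-Hochberg adjustment over all tested probes. Without Cl19 d2 replicate 1 the d2 rise was 0.78 (adjusted p = 0.00489). In 3c3 it was 0.55 ± 0.17 on d4 (adjusted p = 0.0173) and 0.38 on d6, which missed the threshold (adjusted p = 0.0774, 95% confidence interval 0.02 to 0.75). From d4 to d6 the level was lower on each of the 3 slides of both lines, with differences of -0.71 to -0.43 in Cl19 and -0.27 to -0.004 in 3c3, a step that was not tested. With scaling by the 75th percentile the d2 and d6 calls in Cl19 were lost (0.42, adjusted p = 0.175, and 0.38, adjusted p = 0.15), as was the d4 call in 3c3 (0.23, adjusted p = 0.439). In 3c3 the d4 call was also lost without d0 replicate 2 (adjusted p = 0.0655), without d0 replicate 3 (adjusted p = 0.0504) and without the slide of replicate 3 (adjusted p = 0.0872), with a rise of 0.49 to 0.58. In whole-culture RNA, fewer cells of a type and less RNA per cell cannot be told apart.

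The other *Srf* probes did not share this d6 rise. Cl19 d4 was the highest group mean for all 3 probes, and there probes 2 and 3 stood 0.62 and 0.44 above d0 (adjusted p = 0.131 and 0.644, or 0.0204 and 0.116 with the slide as a block), whereas in 3c3 they stood at -0.57 and -0.90 on d4 (adjusted p = 0.183 and 0.329, or 0.0347 and 0.00442 with the block). The Cl19 d4 rise of probe 2 was 1.02 without d4 replicate 2 (adjusted p = 0.0122) and 0.24 without d4 replicate 1 (adjusted p = 0.589). Probe 2 (chr9:9790956-9791015) had levels of 7.83, 7.64 and 7.85 on d0 and 8.06, 6.92 and 7.56 on d6 in Cl19, and of 8.35, 7.65 and 7.92 on d0 and 7.45, 6.54 and 6.99 on d6 in 3c3. Its d6 arrays lay below its d0 arrays in 3c3 and overlapped with them in Cl19. It fell by 0.98 ± 0.33 on d6 in 3c3 (adjusted p = 0.018), a call lost without d0 replicate 1 (-0.79, adjusted p = 0.0874), without d6 replicate 2 (-0.75, adjusted p = 0.0954) or without the slide of replicate 3 (-1.01, adjusted p = 0.0872), and its d6 change in Cl19 was -0.26 (adjusted p = 0.537). Probe 3 (chr9:9796049-9796108) had d0 levels of 7.49 and 7.93 on the slides of replicate 2 against 5.89 to 6.36 on the others, and its d6 change was -0.56 in Cl19 and -1.45 in 3c3 (adjusted p = 0.523 and 0.0909). With the slide as a block, the fall of probe 3 passed the threshold in both lines (adjusted p = 0.0426 and 6.61e-05).

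**Figure D1:**
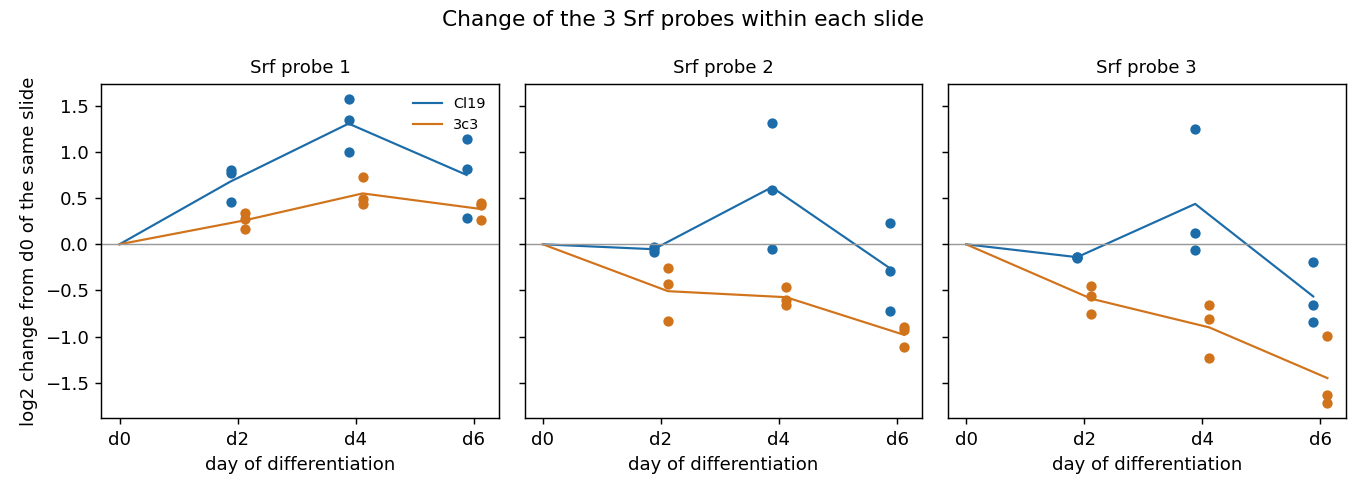
Log2 change of the 3 Srf probes from d0 of the same slide (vertical axis) on d2, d4 and d6 of differentiation, with 1 point per slide and lines through the means of 3 slides. Probe 1 lies above 0 at every point in both lines, whereas probes 2 and 3 lie below 0 on all 3 slides of 3c3 on d6.

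The 3 probes span 6616 bases and are assigned to the same transcript, and which of them follows it was not tested. The mean over all 3 probes changed by -0.02 in Cl19 (adjusted p = 0.943) and by -0.68 in 3c3 on d6 (adjusted p = 0.0265), so the direction for *Srf* rests on the choice of the brightest probe. Within a line all 3 probes had lower means on d6 than on d4, by 0.56 to 1.00 in Cl19 and by 0.17 to 0.55 in 3c3.

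*Srf* is itself known as an SRF target. The RefSeq promoter table (assembly GRCr8, 300 bases per start site: 250 before it and 50 after) held 6 of the 8 genes and lacked *Myocd* and *Mef2c*. The CArG box was found in the promoter of 1 of these 6, *Srf*, with 2 matches that begin 81 and 61 bases before the start site, against 1.64% of all 33469 promoters. The MEF2 site was found in that of *Mef2a*, 40 bases before the start site, against 3.29% of all promoters. Both motifs read the same on either strand. The stretch just before each start site is shown in the direction of the gene, since these are the elements through which the family could act on its own members, with the matches in capitals. *Srf* is on the plus strand at chr9:21923956-21924075 and *Mef2a* on the minus strand at chr1:130392163-130392222 (GRCr8). A match describes the letters only.
Srf: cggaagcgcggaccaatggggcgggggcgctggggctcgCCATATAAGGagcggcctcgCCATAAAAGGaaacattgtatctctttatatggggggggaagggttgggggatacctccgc
Mef2a: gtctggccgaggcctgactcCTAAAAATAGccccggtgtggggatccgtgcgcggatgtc

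*Mkl1*, the actin-regulated coactivator, rose in both lines and was highest in primary SMCs after quantile normalization, an order that turned in the authors' table. Its probe 1 (chr7:119306286-119306345) had log2 levels of 12.24, 12.15 and 12.18 on d0, 12.65, 12.71 and 12.67 on d2, 13.46, 13.46 and 13.47 on d4 and 13.54, 13.58 and 13.30 on d6 in Cl19. In 3c3 the levels were 12.65, 12.19 and 12.26 on d0, 12.76, 12.62 and 12.60 on d2, 12.99, 13.14 and 13.02 on d4 and 13.61, 13.91 and 13.45 on d6. The d4 and the d6 arrays lay above all d0 arrays in both lines. The primary SMC arrays were at 14.02 and 14.01, above every rMAPC array.

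By d6 *Mkl1* probe 1 had risen 2.44-fold in Cl19 (log2 1.29 ± 0.13, adjusted p = 1.13e-07) and 2.45-fold in 3c3 (log2 1.29 ± 0.13, adjusted p = 1.89e-07). In Cl19 the rise was 1.28 on d4 (adjusted p = 1.98e-07), and the mean level on d6 was 0.01 above that on d4. In 3c3 the rise was 0.69 on d4 (adjusted p = 0.000423), and the mean on d6 was 0.61 above d4. These d4 to d6 steps were not tested. On d2 Cl19 had risen by 0.49 (adjusted p = 0.00967), or 0.50 without Cl19 d2 replicate 1 (adjusted p = 0.0173), and 3c3 had changed by 0.29 (adjusted p = 0.134). Scaling by the 75th percentile gave d6 rises of 0.96 in Cl19 and 0.97 in 3c3, both still called. Probe 2 (chr7:119307719-119309349) rose by 1.25 in Cl19 and 1.1 in 3c3 on d6 (adjusted p = 1.91e-05 and 0.000105).

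*Myocd*, which encodes myocardin itself, was detected in primary SMCs and on few of the rMAPC arrays. Its only probe (chr10:51496641-51496700) was detected in both primary SMC samples, at log2 levels of 7.18 and 6.89, and on 2 of the 24 rMAPC arrays (Cl19 d6 replicate 2 and 3c3 d0 replicate 1). The rMAPC levels ran from 1.23 to 2.46 in Cl19 and from 0.84 to 2.95 in 3c3, and none reached the primary SMC arrays. The probe passed the filter for testing only through the primary SMC arrays, where it is high. Its adjusted p-values against them are therefore not independent of that selection. Against 3c3 d6, where it was detected on no array (measured mean 1.27), primary SMCs had at least 18.5-fold more signal (adjusted p = 1.94e-11 for the fitted difference). Against Cl19 d6, where 1 of 3 arrays detected it, primary SMCs had about 31.4-fold more by the same reckoning (adjusted p = 1.24e-10 for the fitted difference). This reckoning takes, for each dim array, the higher of the probe's own signal and the lowest signal that was well above background on that array. That lowest signal can come from any probe, so "at least" here and below is relative to it and not to the probe's own limit.

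Within 3c3 the fitted *Myocd* change on d6 was -1.20 (adjusted p = 0.00402), but it compares values detected on 1 of 3 d0 arrays and on no d6 array, so no fold is given. It was -0.79 (adjusted p = 0.107) with 75th percentile scaling, -0.06 (adjusted p = 0.335) with the normexp background correction and -0.48 (adjusted p = 0.326) in the authors' log2 table. In Cl19 the change was 0.05 (adjusted p = 0.92). A change of *Myocd* below the background of this array was not detectable.

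*Klf15*, the inhibitor in the set, rose in both lines by d4, and its d6 rise passed the test in 3c3 but not in Cl19. Its probe (chr4:124726755-124726814) had log2 levels of 5.99, 5.77 and 5.71 on d0, 7.14, 6.50 and 6.93 on d2, 10.16, 7.50 and 8.64 on d4 and 7.0, 6.77 and 4.84 on d6 in Cl19. In 3c3 it had 5.28, 5.94 and 5.65 on d0, 7.23, 7.12 and 7.20 on d2, 7.14, 10.098 and 9.17 on d4 and 7.42, 9.42 and 9.0 on d6. The d4 arrays of a line lay far apart from each other, from 7.50 to 10.16 in Cl19 and from 7.14 to 10.098 in 3c3, and all above d0. On d6 the Cl19 arrays overlapped with d0, whereas those of 3c3 did not, and primary SMCs had 9.28 and 9.27.

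The d4 rise of *Klf15* was 7.69-fold in Cl19 (log2 2.94 ± 0.69, adjusted p = 0.00165) and 9.08-fold in 3c3 (log2 3.18 ± 0.69, adjusted p = 0.00134). The size rests on single arrays: it was 4.74-fold without d4 replicate 1 and 11.9-fold without d4 replicate 2 in Cl19, and 16.2-fold without d4 replicate 1 and 5.79-fold without d4 replicate 2 in 3c3, with each still called. By d6 it was 2.99 in 3c3 (7.95-fold, adjusted p = 0.00141, or 12.03-fold without d6 replicate 1) and 0.38 in Cl19 (adjusted p = 0.676, 95% confidence interval -1.07 to 1.83). From d4 to d6 the level was lower on all 3 Cl19 slides, with differences of -3.16, -0.72 and -3.79, a step that was not tested. The d6 changes of the lines differed by -2.61 ± 0.98 (Cl19 minus 3c3), which missed the threshold (adjusted p = 0.0761) but passed it with the slide as a block (adjusted p = 0.0251) and without 3c3 d6 replicate 1 (-3.21, adjusted p = 0.0272). The Cl19 d6 change turned to -0.01 without d6 replicate 1 (adjusted p = 0.991), so its sign is not settled. On d2 the changes were 1.03 in Cl19 (adjusted p = 0.33), 0.89 without Cl19 d2 replicate 1, and 1.56 in 3c3 (adjusted p = 0.132), the last of which passed with the block (adjusted p = 0.0491). In both lines all d2 arrays lay above the d0 arrays. The SE of 0.69 draws on all groups, including the widely spread d4 arrays.

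Of the MEF2 genes, *Mef2d* was lower during differentiation and highest in primary SMCs after quantile normalization, an order that turned in the authors' table. Its probe (chr2:180239855-180239914) had log2 levels of 7.17, 6.86 and 6.98 on d0, 6.69, 6.05 and 6.16 on d2, 6.74, 5.85 and 6.53 on d4 and 6.66, 6.04 and 6.22 on d6 in Cl19. In 3c3 it had 7.64, 7.01 and 7.30 on d0, 6.96, 6.34 and 6.68 on d2, 6.64, 6.4 and 6.65 on d4 and 6.74, 6.85 and 6.73 on d6. In both lines all 9 later arrays lay below the 3 d0 arrays. In 3c3 the d6 arrays lay above the d4 arrays, with differences of 0.08 to 0.46 on the slides, a step that was not tested. The primary SMC arrays were at 7.96 and 7.76.

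*Mef2d* fell in Cl19 by 0.70 ± 0.23 on d2 (adjusted p = 0.035), 0.63 on d4 (adjusted p = 0.0324) and 0.70 on d6 (1.62-fold lower, adjusted p = 0.0168). Without Cl19 d2 replicate 1 the d2 change was -0.90 (adjusted p = 0.0108). In 3c3 it fell by 0.75 on d4 (adjusted p = 0.0158), and its changes on d2 (-0.66, adjusted p = 0.0562) and d6 (-0.54, adjusted p = 0.0629) missed the threshold but passed with the slide as a block (adjusted p = 0.00346 and 0.00498). Several single arrays decided these calls: on d6 in Cl19 the fall missed the threshold without d0 replicate 1 (-0.62, adjusted p = 0.0648) or d6 replicate 2 (-0.56, adjusted p = 0.0835). On d4 it missed the threshold in Cl19 without d4 replicate 2 (-0.37, adjusted p = 0.21), d0 replicate 1 (adjusted p = 0.108) or d0 replicate 3 (adjusted p = 0.0647), and in 3c3 without d0 replicate 1 (adjusted p = 0.0879), d4 replicate 2 (adjusted p = 0.0603) or the slide of replicate 3 (adjusted p = 0.0831). On d2 in Cl19, leaving out any array of d0 or d2 other than d2 replicate 1 gave adjusted p from 0.0522 to 0.152. In the authors' log2 table the d6 changes were -0.31 and -0.22 (adjusted p = 0.0673 and 0.217), still downward.

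*Mef2a* was dim throughout. Probe 1 (chr1:122050145-122050204) was detected on 18 of the 24 rMAPC arrays and on neither primary SMC array, with levels from 2.58 to 5.01 in Cl19 and from 0.81 to 4.70 in 3c3. On d6 it had 4.45, 5.01 and 3.28 in Cl19 against 2.90, 3.31 and 2.58 on d0, and 2.93, 4.56 and 2.68 in 3c3 against 0.81, 3.73 and 2.31. The d6 value was above the d0 value on all 3 slides of each line, but the groups overlapped. Its d6 changes of 1.32 ± 0.74 and 1.1 ± 0.74 were not called (adjusted p = 0.145 and 0.233), while the block gave adjusted p = 0.0128 and 0.0338. Probe 2 was below the detection limit throughout and was not tested.

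**Figure D2:**
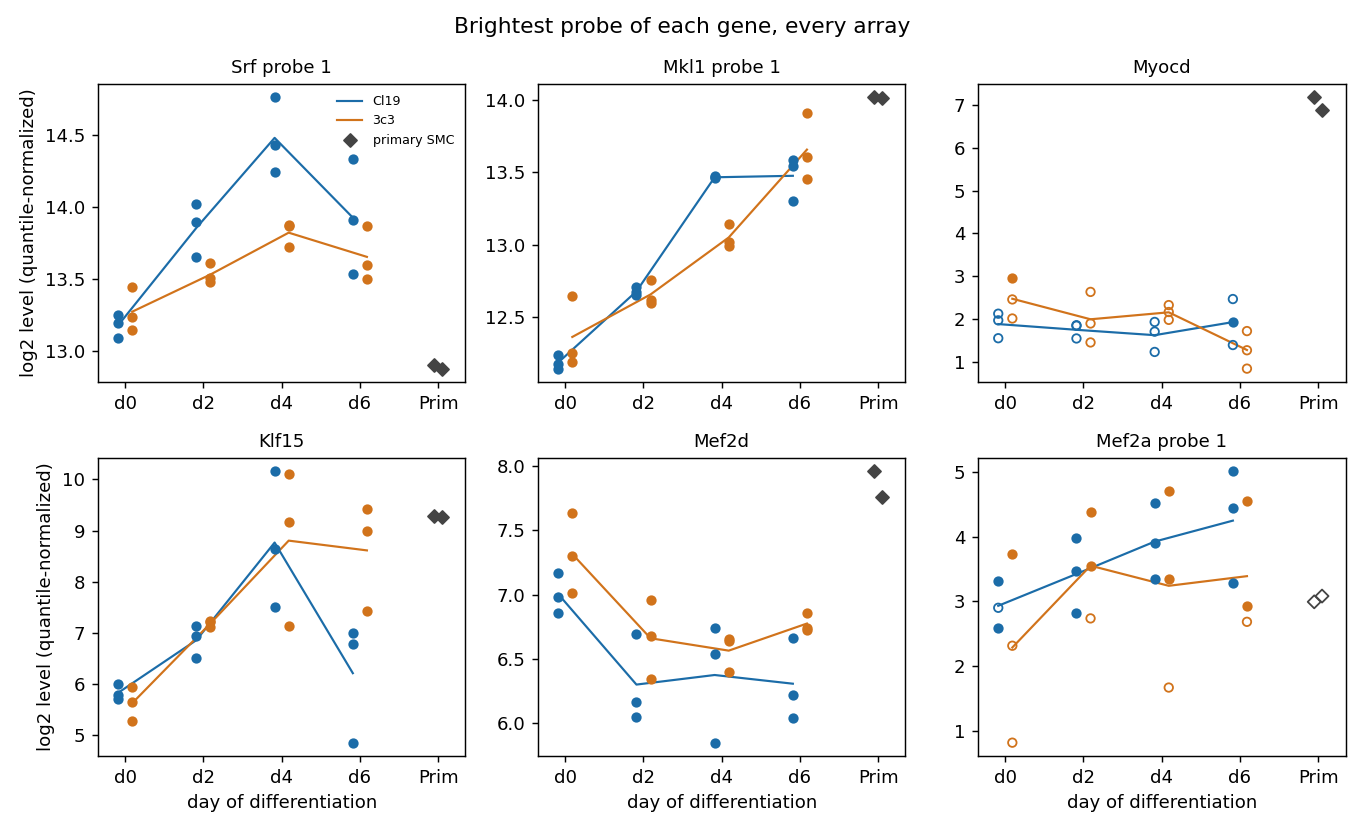
Quantile-normalized log2 level (vertical axes, a separate scale for each probe) of the brightest probe of the 6 genes on each array by day of differentiation, with lines through the means of 3 arrays and diamonds for the 2 primary SMC arrays. Open symbols mark arrays that did not detect the probe, which includes 22 of the 24 rMAPC arrays for Myocd.

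The counts of members called stand beside the share of all tested probes called in the same comparison. On d6, 3 of the 6 genes were called in Cl19 (*Srf* by probe 1 and *Mkl1* up, *Mef2d* down), where 52.2% of all tested probes were called. In 3c3, 3 of 6 were called as well (*Mkl1* and *Klf15* up, *Myocd* down among dim values), against 48.2% of probes, and the block gave 5 (*Mef2a* and *Mef2d* added). On d4, 4 of 6 were called in Cl19 and 4 of 6 in 3c3, against 47.3% and 37.0% of probes, and these were *Srf* by probe 1, *Mkl1* and *Klf15* upward and *Mef2d* downward in both lines. In 3c3 *Srf* probes 2 and 3 went the other way on d4, at -0.57 and -0.90 (adjusted p = 0.183 and 0.329, or 0.0347 and 0.00442 with the block). Without the slide of 3c3 replicate 3 the d4 count of 3c3 was 2. On d2, 3 of 6 were called in Cl19, with 22.6% of probes, while none of 6 was called by limma in 3c3, with 19.1% of probes. In 3c3 on d2, 3 of the genes had an unadjusted p under the threshold of 0.05, 3 passed with the block and 1 passed in the methods' t-test.

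Over all 4 days, the F-test called 4 genes in Cl19 (54.3% of probes) and 4 in 3c3 (50% of probes), with *Mkl1*, *Mef2d* and *Klf15* in both, *Srf* in Cl19 (adjusted p = 3.37e-05, against 0.0638 in 3c3, where the block gave 0.0393) and *Myocd* in 3c3. The *Myocd* call compares values near background, since 1 of 3 d0 arrays and no later array of 3c3 detected it. The 3c3 count was 1 without the slide of replicate 3 and 2 without d0 replicate 1, d6 replicate 1 or d6 replicate 3. The call of *Klf15* in Cl19 was lost without d4 replicate 1 (adjusted p = 0.0558), that of *Mef2d* in Cl19 was lost without any of 7 single arrays (adjusted p from 0.0529 to 0.175), and that of *Mef2d* in 3c3 without any of 10 (adjusted p from 0.0509 to 0.241). With the block the Cl19 count was 5, with *Mef2a* added (adjusted p = 0.0497). *Srf* probe 2 (adjusted p = 0.00943 in Cl19 and 0.00651 in 3c3) and probe 3 (0.00902 and 0.000458) passed the F-test with the block but not in the main fit. In Cl19 probe 2 also passed it without d4 replicate 2 (adjusted p = 0.0095) or without d6 replicate 1 (adjusted p = 0.0499).

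No difference between the lines was detected on d0. None of the 6 genes was called between Cl19 and 3c3 on d0 by limma, none had an unadjusted p under 0.05, none was called by the methods' t-test, and 3.07% of all probes were called. The 95% confidence intervals of the difference (Cl19 minus 3c3) were -0.46 to 0.27 for *Srf*, -0.45 to 0.10 for *Mkl1*, -0.80 to 0.18 for *Mef2d* and -1.25 to 1.65 for *Klf15*, which for the first 3 genes leave out a 2-fold difference. The interval of *Klf15* uses the spread over all groups. Its standard deviations in Cl19 and 3c3 were 0.15 and 0.33 on d0 but 1.34 and 1.52 on d4. Nor did limma call a line difference in the d6 change of any of the 6 genes (17.4% of probes). Here 2 genes, *Klf15* and *Myocd*, had an unadjusted p under 0.05 and passed with the block, and *Myocd* was at background in both lines. For *Mkl1* the interval of the line difference was -0.39 to 0.38.

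Set against primary SMCs after quantile normalization, d6 cells had more *Srf* signal on probe 1 and less *Mkl1*, *Mef2d* and *Myocd*. Of these, only the directions of *Myocd* and of *Srf* probe 1 held in the authors' table, where the median of all probes in primary SMCs differed by -2.17 from Cl19 d6 and by -2.09 from 3c3 d6, against -0.13 and -0.13 after quantile normalization. There *Mkl1* probe 1 differed by -0.94 and -1.09 and *Mef2d* by -0.90 and -1.24, which is above those medians. There, 1640 of 19751 and 1854 of 19510 called probes were higher in primary SMCs, against 8010 of 17441 and 8168 of 17476 after quantile normalization. A lower *Srf* probe 1 in the authors' table thus shares the direction of most called probes and decides nothing about *Srf* itself. Primary SMCs were lower in *Srf* probe 1 than Cl19 d6 by 1.04 ± 0.19 (2.06-fold, adjusted p = 8.73e-05) and than 3c3 d6 by 0.77 (1.70-fold, adjusted p = 0.00161). Neither call held with 75th percentile scaling (-0.42, adjusted p = 0.126, and -0.21, adjusted p = 0.45), and the mean over the 3 probes turned the direction (0.17, adjusted p = 0.597, and 0.62, adjusted p = 0.0478). Probe 2 again went the other way, at 1.31 above 3c3 d6 (adjusted p = 0.0035) and 0.79 above Cl19 d6 (adjusted p = 0.0611, or 0.0195 without Cl19 d6 replicate 1). *Mkl1* was higher in primary SMCs than in Cl19 d6 by 0.54 (adjusted p = 0.00275) and than in 3c3 d6 by 0.36 (adjusted p = 0.0343), and the latter call was lost with the slide as a block (adjusted p = 0.0661), without either primary SMC array (adjusted p = 0.106 and 0.11), without 3c3 d6 replicate 1 (adjusted p = 0.0755) and without 3c3 d6 replicate 3 (0.26, adjusted p = 0.145). *Mef2d* was higher in primary SMCs by 1.55 than in Cl19 d6 (2.94-fold, adjusted p = 2.63e-05) and by 1.09 than in 3c3 d6 (2.12-fold, adjusted p = 0.00102). *Klf15* was 8.37-fold higher than in Cl19 d6 (adjusted p = 0.00159, or 5.22-fold without Cl19 d6 replicate 3) and differed from 3c3 d6 by 0.66 (adjusted p = 0.456, 95% confidence interval -0.96 to 2.28). In all, 5 of 6 genes were called against Cl19 d6 and 4 of 6 against 3c3 d6, where 71.4% and 71.5% of all probes were called. Both counts include *Myocd*, which entered the test only through the primary SMC arrays, where it is high. The primary SMC arrays are common to both comparisons, so these counts share samples.

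**Figure D3:**
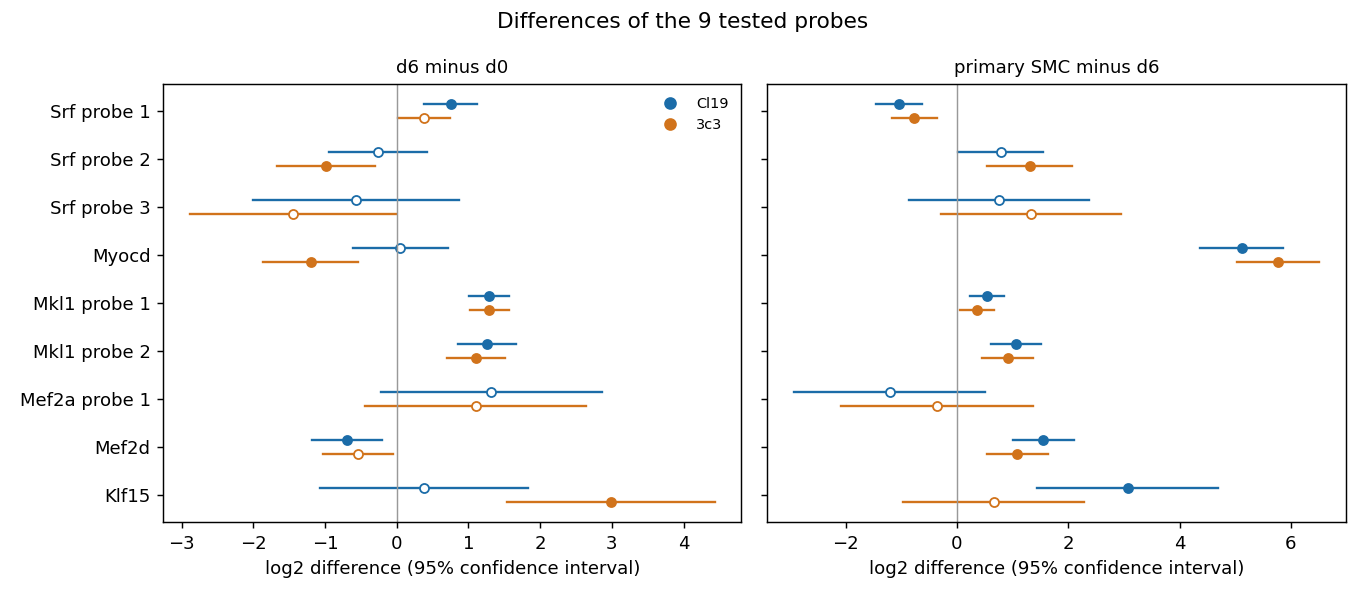
Fitted log2 differences (points) of the 9 tested probes with 95% confidence intervals (bars), from d0 to d6 on the left and from d6 to primary SMCs on the right, for Cl19 and 3c3. Filled points passed an adjusted p of 0.05. Both Mkl1 probes rose by 1.1 to 1.29 in both lines, and the Myocd points against primary SMCs are fitted against d6 arrays of which at most 1 of 3 detected it, so they are not exact differences.

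Counts over the gene lists are read beside the 52.2% of all probes called on d6 in Cl19 and the 48.2% in 3c3. They include genes detected on no d0 array (such as *Abra*, *Hopx*, *Lmod1* and *Nppa*) or on no d6 array (*Klf8*). Such genes entered the test only through other groups, so their calls are not independent of that selection. The partners of SRF and myocardin changed in both directions. Of 19 tested genes of this list, 8 rose and 6 fell in Cl19 and 7 rose and 2 fell in 3c3 by d6, with median changes of 0.22 and 0.40 beside -0.20 and -0.21 over all probes. These depended on the processing, with medians of 0.02 and 0.08 with normexp and of 0.65 and 0.83 in the authors' table, and with 7 higher and 5 lower in 3c3 by 75th percentile scaling. *Abra*, an actin-binding activator of SRF signalling, was detected on no d0 array and rose at least 72.7-fold in Cl19 and, detected on 2 of 3 d6 arrays, at least 2.21-fold in 3c3, where the call was lost with normexp. *Tgfb1i1*, a LIM protein of focal adhesions, rose by 4.34 ± 0.19 and 2.56 ± 0.19 (adjusted p = 2.67e-12 and 4.3e-09), and the SRF cofactor *Fhl2* by 3.43 and 2.90 (adjusted p = 3.45e-11 and 3.96e-10). The list's falls in both lines were *Gata6*, a GATA factor of endoderm and vascular smooth muscle, by 3.31 and 1.47, and *Cabin1*, a repressor of calcineurin and MEF2, by 1.37 and 0.84 (adjusted p = 2.45e-05 and 0.00339).

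In the lists of contractile and cytoskeletal SRF targets, every gene that passed the test on d6 was higher. Of 16 tested smooth muscle CArG target genes, 9 rose in Cl19 (median change 2.45) and 10 in 3c3 (median 1.62), and the rest did not pass the test. With normexp the medians were 1.25 and 0.95. *Tagln*, which encodes SM22α, rose by 6.54 ± 0.33 and 5.95 ± 0.33 (adjusted p = 1.88e-11 and 8.91e-11), *Tpm2*, a muscle tropomyosin, by 5.81 and 5.93, and *Lmod1*, a smooth muscle leiomodin detected on no d0 array and on 2 of 3 d6 arrays in 3c3, at least 6.26-fold in Cl19 and at least 3.47-fold in 3c3.

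Of the actin-responsive targets, those served by the MRTFs, 19 of 19 rose in Cl19 and 16 of 19 in 3c3, with medians of 1.87 and 1.82. *Filip1l*, which encodes a filamin-interacting protein, rose by 6.36 and 4.41, *Actc1* (cardiac α-actin) by 6.13 and 3.84, and *Acta1* (skeletal α-actin) by 3.63 and 3.72. The *Actc1* rise in 3c3 was called with adjusted p = 0.0147 and missed the threshold without the slide of replicate 3 (3.52, adjusted p = 0.111) and with normexp (1.93, adjusted p = 0.0668). With the 75th percentile scaling, 16 rose in Cl19 and 14 in 3c3. *Tgfb1i1* and *Fhl2* stand in this list and in that of the partners.

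Of the 9 tested serum-responsive targets, which SRF serves with ternary complex factors, 4 rose and 1 fell in Cl19 and 5 rose in 3c3 (medians 1.19 and 0.86, or 0.21 and 0.43 with normexp). *Junb* rose by 2.08 and 1.62, *Dusp5*, a phosphatase of ERK, by 1.86 and 1.16, and *Ier2* by 1.65 and 0.86. *Nr4a1*, an orphan nuclear receptor named here after its values were seen, fell in Cl19 by 1.31 (adjusted p = 0.00184) and changed by 0.42 in 3c3 (adjusted p = 0.296).

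**Figure D4:**
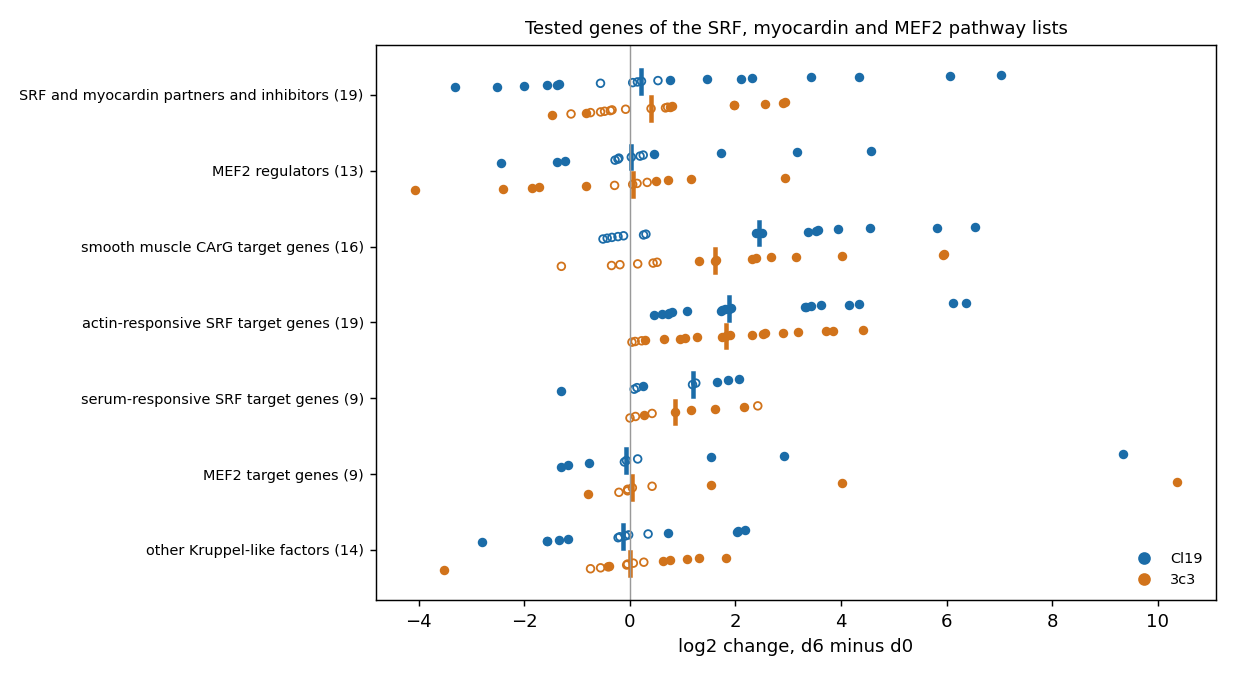
Log2 change from d0 to d6 (horizontal axis) of each tested gene of 7 pathway lists, in Cl19 and 3c3, with filled points for an adjusted p under 0.05, vertical bars for list medians and the number of tested genes in parentheses. The 2 lists of contractile and actin-responsive SRF targets have medians of 1.62 to 2.45, and the MEF2 lists have medians of -0.06 to 0.05.

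The MEF2 lists held both rises and falls. Of 13 tested MEF2 regulators, 4 rose and 3 fell in Cl19 and 4 rose and 5 fell in 3c3 (medians 0.03 and 0.05). Of the class IIa deacetylases, *Hdac5* rose by 3.17 and 2.94 (adjusted p = 6e-11 and 2.03e-10) and *Hdac4* fell by 1.23 and 1.85 (adjusted p = 0.00151 and 3.53e-05), *Hdac7* changed by 0.25 in Cl19 (adjusted p = 0.152) and rose by 0.72 in 3c3 (adjusted p = 0.000404), and *Hdac9* was not tested. *Ppp3ca*, a catalytic subunit of calcineurin, rose by 1.73 and 1.16, while another, *Ppp3cb*, changed by -0.23 and -0.29 (adjusted p = 0.247 and 0.141), *Camk2g* rose by 0.45 and 0.51, and *Camk4* fell by 2.44 in Cl19 (detected on 1 of 3 d6 arrays) and at least 1.88-fold in 3c3. Of 9 tested MEF2 target genes, 3 rose and 3 fell in Cl19 and 3 rose and 1 fell in 3c3 (medians -0.06 and 0.05). The signs of these medians are not settled, since with 75th percentile scaling they were -0.09 and -0.28 for the regulators and 0.06 and 0.14 for the targets. *Nppa*, which encodes atrial natriuretic peptide, was detected neither on d0 nor in primary SMCs and rose at least 232-fold in Cl19 and at least 338-fold in 3c3. *Myom1*, a protein of the sarcomere's M band, rose by 2.91 in Cl19 and at least 13.9-fold in 3c3, *Jun* by 1.54 and 1.55, and *Mb*, which encodes myoglobin, fell by 0.77 and 0.79.

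Of the 14 other Kruppel-like factors tested, 4 rose and 5 fell in Cl19 and 5 rose and 2 fell in 3c3 (medians -0.14 and 0.01, the former 0.07 in the authors' table). *Klf6* rose by 2.04 and 1.82, *Klf7* by 2.18 and 1.31 and *Klf9* by 2.04 and 1.07, while *Klf8* fell at least 5.66-fold and at least 2.56-fold and was detected on no d6 array.

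Markers of other cell types changed over the same days. The mean log2 level of 6 smooth muscle markers went from 5.91 to 6.18 on the Cl19 d0 arrays to 9.48 to 9.71 on d6, and from 6.11 to 6.41 to 9.14 to 9.91 in 3c3, against 11.56 to 11.66 in primary SMCs, where both arrays detected all 6. Over the same days the mean of 6 cardiac markers went from 4.28 to 4.50 to 8.38 to 8.60 in Cl19 and from 3.93 to 4.06 to 7.99 to 9.20 in 3c3, and 4 of the 6 rose in each line. In primary SMCs the cardiac mean was 3.17 to 3.66, below every rMAPC array, and both arrays detected 2 of the 6. The mean of 5 fibroblast markers went from 3.89 to 3.96 to 6.87 to 7.07 in Cl19 and from 3.86 to 4.09 to 4.06 to 4.77 in 3c3, and that of 6 markers of undifferentiated rMAPCs and primitive endoderm from 11.99 to 12.06 on d0 to 8.31 to 8.97 on d6 in Cl19 and from 12.29 to 12.39 to between 10.93 and 11 in 3c3. Primary SMCs had 9.57 to 9.58 for the fibroblast markers and 4.21 to 4.62 for the undifferentiated markers. By d6, 5 smooth muscle markers rose in Cl19 and 6 in 3c3. Of the fibroblast markers, 3 rose and 1 fell in Cl19, and 1 rose and 1 fell in 3c3. Of the undifferentiated markers, 1 rose and 5 fell in Cl19, and 1 rose and 4 fell in 3c3. The part of these cell types in the values of the 8 genes was not tested. Of 7 skeletal muscle markers, *Myod1*, *Ckm* and *Myh4* were detected on no array, while *Actn3* was detected on 19 of 24 rMAPC arrays and rose by 1.40 and 1.08 (adjusted p = 0.00382 and 0.0228) and *Tnnt3* fell by 1.93 in Cl19 (adjusted p = 0.00366). Of 5 endothelial markers, *Cdh5* and *Vwf* were detected on 1 of the 2 primary SMC arrays and the other 3 on neither. The d0 arrays detected 4 to 5 of these markers in Cl19 and 4 in 3c3. Their mean went from 4.70 to 5.06 on d0 to 2.26 to 2.83 on d6 in Cl19 and from 4.10 to 4.24 to 3.76 to 4.12 in 3c3. By d6, 2 fell in Cl19 and 1 in 3c3. Of 4 blood markers, the d0 arrays of both lines detected 1 and both primary SMC arrays 2.

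In the promoter table, the CArG box was found in 3 of 20 partners of SRF and myocardin, none of 13 smooth muscle CArG target genes, 4 of 17 actin-responsive and 3 of 8 serum-responsive targets. It was also found in 1 of 11 other Kruppel-like factors (*Klf6*) and in no gene of the MEF2 lists, against 1.64% of all promoters. The MEF2 site was found in 3 of 12 MEF2 target genes, 1 of 17 MEF2 regulators, 2 of 20 partners and 2 of 17 actin-responsive targets, against 3.29% of all promoters. The remaining lists had no MEF2 site. Each count is out of the genes with an entry. The genes of the serum-responsive list were *Dusp5*, *Egr1* and *Egr2*, and those of the actin-responsive list *Acta1*, *Actc1*, *Actg1* and *Fhl2*. No match says only that the letters are not in these 300 bases.

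The genes most like each of the 6 in their pattern were found by the correlation of group means over the 9 groups, among 11667 other gene symbols with a tested probe. *Mkl1* was followed most closely by *Prnp* (r = 0.992, and 0.966 over the 24 rMAPC arrays), *Maf1* (0.976 and 0.949) and *Sidt2* (0.9749 and 0.879), all of which were highest in primary SMCs. *Srf* probe 1 was followed by *Lrig2* (0.982 and 0.892), *Dgkk* (0.977 and 0.879) and *Ranbp9* (0.977 and 0.901), all lowest there, and *Klf15* by *Snx30* (0.962 and 0.901), *S100a1* (0.950 and 0.933) and *Prkg1* (0.941 and 0.841). For *Myocd* the likeness rests on the primary SMC group, since *Nfic*, *Ggn* and *Or2av9* had r of 0.996 to 0.997 over the groups but 0.54, 0.13 and -0.05 over the rMAPC arrays. *Mef2d* (*Adra2b*, *Fhl4* and *Adcy10*, r of 0.966 to 0.973) and *Mef2a* (*Dynlt2b*, *Cd55* and *Inpp5j*, r of 0.944 to 0.956) had r of 0.65 to 0.82 and of 0.51 to 0.55 over the rMAPC arrays. These points share arrays, slides and normalization, and the values describe likeness only.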

How the data were processed

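The authors used Cy3 and a one-color Agilent whole genome array for rat (rn4), 1 per sample, and deposited, per the file headers, the intensity of each feature from Agilent Feature Extraction 10.1.1.1, already corrected for background. The authors also deposited a table of log2 values, which equals the log2 of these intensities and is not normalized between arrays. From the intensities, log2 values of 43379 gene features were quantile-normalized over 26 arrays, outlier features were left out and features of a probe were averaged. Quantile normalization removes a change shared by most genes, and dim probes keep a wide spread. Precision is limited by 3 arrays per group and 2 of primary SMCs.

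Probes that all arrays of some group detected entered 1 limma fit (version 3.58.1, R 4.3.3) over the 9 groups, adjusted by Benjamini-Hochberg, and were called at 0.05. The fit was tested on simulated data in which all arrays were independent, so that test does not cover the pairing by slide. Replicate numbers paired arrays, since by the scanner files arrays of a line with the same number share a slide: deviations from group means correlated by over 0.1 in 18 of 18 pairs of arrays on a slide in 3c3 and in 16 of 18 in Cl19 (lowest 0.06). Values with the slide as a block stand where they change a call.

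The 8 genes, the pathway and marker lists and the tests were chosen with earlier results of these data known. All probes of the 8 genes are named. For each other list, the 3 largest rises and falls among genes called the same way in both lines on d6 are named, 1 brightest probe per gene. Probes were named by the files' gene names, or by accession through a RefSeq gene table of assembly GRCr8 (21182 of 41012 probes received a symbol). Python 3.11.15 drew the figures.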

Additional observations from a re-analysis of the deposited data

Results flagged for a closer look

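Between the lines, the d6 change of 18 of the 92 distinct tested genes of the pathway lists (19.6%) differed by the interaction test of limma at an adjusted p under 0.05, against 17.4% of all probes. Of these, 10 are named here (Cl19 minus 3c3, log2), picked by their d6 changes or after their values were seen. Their signs do not give the balance of all 18. For example, the SRF partners *Fhl1* and *Elk4* are among the rest and had lower d6 changes in Cl19 than in 3c3. *Sik1*, a kinase that acts on class IIa deacetylases, differed by 6.29 (adjusted p = 2.2e-08), since it rose by 4.56 in Cl19 and fell by 1.73 in 3c3. *Hopx*, a repressor of SRF activity, differed by 5.36 (adjusted p = 3.69e-05) and was detected on no d0 array, and *Prkd1* differed by 3.87 (adjusted p = 0.00022), with no 3c3 d6 array detecting it, so both rest on fitted values of dim arrays. These 3 and *Nr4a1* were named after their values were seen. The other differences were 4.11 for *Abra* (adjusted p = 0.00676), 1.78 for *Tgfb1i1* (adjusted p = 0.000106), -1.84 for *Gata6* (adjusted p = 0.0025), 1.95 for *Filip1l* (adjusted p = 0.0234), 0.788 for *Ier2* (adjusted p = 0.0217), 0.962 for *Klf9* (adjusted p = 0.0202) and -1.73 for *Nr4a1* (adjusted p = 0.0105). *Abra* was detected on no d0 array, so its difference uses fitted values of a dim probe. Without detection on d0, *Abra* and *Hopx* entered the test only through groups where they are higher. Their adjusted p-values are therefore not independent of that selection. Groups of 2 or 3 arrays were too small for a search for single outlying arrays.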

How the results depend on the processing

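The numbers of the 6 genes called stayed within 1.5 times of the main count in 157 recomputed counts and left that range in 27. With 75th percentile scaling the d2 count of Cl19 was 1 in place of 3, and a fit per line also gave 1. The d2 count of 3c3, none in the main analysis, was 1 with 75th percentile scaling, normexp, the authors' log2 table, a fit per line, the mean over the probes of a gene and the methods' t-test, and 0 to 1 without single arrays. With the replicate block (pairing by slide) it was 3, the d6 count of 3c3 was 5 in place of 3 (also 5 with a fit per line) and the line difference was called for 2 genes in place of 0. Other probes missed the threshold in the main fit but passed with the block. On d2 these were *Mkl1* probe 2 and *Mef2a* probe 1 in 3c3 (adjusted p = 0.0124 and 0.034). On d4 they were *Srf* probe 2, upward in Cl19 and downward in 3c3 (0.62 and -0.57, adjusted p = 0.0204 and 0.0347), and *Srf* probe 3 in 3c3 (-0.90, adjusted p = 0.00442). The Cl19 d4 rise of *Srf* probe 2 also passed by limma without d4 replicate 2 (1.02, adjusted p = 0.0122). The block changed no other pairwise call of the 8 genes than these and those given beside the results. The methods' t-test gave 1 in place of 4 on d4 in 3c3, 1 in place of 3 on d6 in Cl19 and 3 in place of 5 for primary SMCs against Cl19 d6. Without the slide of 3c3 replicate 3, the d4 count of 3c3 was 2 and that over time 1, in place of 4 each, and the d2 and line difference counts were 0. Without single arrays these ranged from 3 to 4 on d4 in 3c3, from 2 to 4 over time in 3c3 and from 0 to 1 for the line difference.

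On d6 the direction turned for the mean over the *Srf* probes (-0.0247 in Cl19, -0.68 in 3c3), and in Cl19 for *Srf* probe 2 in the authors' table (0.0892) and, over single arrays left out, for *Srf* probe 2 (-0.53 to 0.0354), *Myocd* (-0.22 to 0.31) and *Klf15* (-0.0135 to 1.06), none of which was called in Cl19. *Prkd1* in Cl19 turned in the authors' table (0.315). In all, 8 recomputed d6 values turned, 24 lost the call, 12 gained it and 676 kept direction and call, and the cause was not tested. The list genes were added to these alternatives after seeing the data. Dim probes such as those of *Myocd* and *Mef2a* limit what these arrays can show.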
